A study of Mus musculus with 4 samples.

Results

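Integrins and laminins are 2 families of adhesion proteins, receptors at the cell surface and trimers of the basement membrane. Their genes were followed here in fat progenitors of mice with and without an Adamts1 transgene. Members were all non-control probes on the array whose gene name is that of an integrin alpha or beta chain or of a laminin alpha, beta or gamma chain. This rule took 50 of the 55681 non-control probes, which stand for 37 genes, 26 of integrins and 11 of laminins. Both groups were male FVB mice, 4 weeks old, with 2 samples of wild-type and 2 of the Adamts1 transgenic genotype. The cells came from the subcutaneous fat depots, were isolated by FACS, lysed at once without culture and given no treatment. ADAMTS1 is a secreted metalloproteinase that cleaves matrix proteoglycans. The labels do not name the promoter or cell type that drives the transgene, the sort gate, or whether a sample pools animals, and nothing says that the 2 samples of a group came from separate mice. The p-values below therefore measure the spread between these samples, which may be technical.

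An integrin is a pair of 1 alpha and 1 beta chain that spans the membrane, binds matrix or another cell on the outside and reaches actin through talin and kindlin on the inside. The alpha chain largely sets the ligand: one class binds collagen, one laminin, one the arginine-glycine-aspartate (RGD) motif of proteins such as fibronectin, and the leukocyte class binds mainly counter-receptors on other cells. A laminin is a cross-shaped trimer of 1 alpha, 1 beta and 1 gamma chain and is the organising polymer of the basement membrane, the thin sheet that surrounds every fat cell and every capillary. Fat progenitors lie in the stroma near vessels, and in cultured mouse preadipocytes the fibronectin receptor alpha5 has been described as giving way to the laminin receptor alpha6 during differentiation.

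The sequences on which the called members were measured are shown first, since each rests on 1 probe of the array. These are the first 30 bases of each probe, copied from the array files in the sense of the transcript, for Lamc3 (laminin gamma3, plus strand, probe at chr2:31801996-31802055 of mm9), Itga8 (integrin alpha8, minus strand, chr2:12028462-12028521) and Itgb7 (integrin beta7, minus strand, chr15:102046450-102046509).
Lamc3: ccccaggtcccagaggaactgattgtgatt
Itga8: catacattggtattctcgaggagtctatct
Itgb7: atttttcagagtgaccttcagagggcagca

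The 3 probes of Itgam, the alpha chain of the myeloid integrin Mac-1, are shown because they differ in kind. The brightest of them, at chr7:135261755-135261814, opens with a run of CA dinucleotides, given in capitals, and the others, at chr7:135260275-135260334 and chr7:135212140-135212199, hold no such run in their first 30 bases.
Itgam, base 4431 of the transcript: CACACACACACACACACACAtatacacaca
Itgam, base 3410: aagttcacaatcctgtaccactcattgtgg
Itgam, base 270: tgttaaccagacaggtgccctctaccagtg

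Promoter windows of 280 bases, from 250 before the start of the gene to 30 after it, were taken from RefSeq on GRCm38.p6, where 23 of the 37 members had an entry, with 26 windows in all. Those of 2 of the 3 called genes are printed, Itga8 at chr2:12301915-12302194 and Itgb7 at chr15:102231906-102232185, both on the minus strand and 5′ to 3′. The 6 capitals in the Itgb7 window are the reverse complement of GAGGAA, the core letters bound by the myeloid and lymphoid factor PU.1, near the start of the gene.
Itga8: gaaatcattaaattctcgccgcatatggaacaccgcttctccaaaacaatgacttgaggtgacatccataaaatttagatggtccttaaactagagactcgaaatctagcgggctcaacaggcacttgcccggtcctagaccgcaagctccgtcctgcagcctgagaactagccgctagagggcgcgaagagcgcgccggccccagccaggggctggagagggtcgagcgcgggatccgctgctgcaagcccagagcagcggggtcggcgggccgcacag
Itgb7: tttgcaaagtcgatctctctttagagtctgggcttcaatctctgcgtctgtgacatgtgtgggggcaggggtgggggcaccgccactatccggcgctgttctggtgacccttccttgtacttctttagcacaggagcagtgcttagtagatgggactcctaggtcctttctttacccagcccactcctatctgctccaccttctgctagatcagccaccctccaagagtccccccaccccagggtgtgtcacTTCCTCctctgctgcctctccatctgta

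The windows were searched on both strands for 7 short motifs. GAGGAA stood in 14 of the 26 member windows and in 25.98% of all 32851 windows of that length, and GGGCGG, the box of Sp and KLF factors, in 12 of 26 and 34.69%. CAGACA, a SMAD box, stood in 7 of 26 and 19.55%, TGTGGT, a RUNX site, in 3 and 15.61%, and GGAATG, a TEAD site, in 3 and 13.93%. TGANTCA, the AP-1 site, stood in 2 and 7.461%, and TATAAA in 0 and 13.1%. The Itga8 window held none of the 7 motifs, and the Itgb7 window held GAGGAA alone. Member windows had a median of 58.0% G and C, against 52.5% over all windows. These matches describe letters in a window and not binding.

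The RNA was labelled with Cy3 and hybridised to 1 array per sample. A level is the log2 processed signal of the probe less the 75th percentile of its array, so that 0 is that percentile and each unit is a doubling, and a gene was read from its brightest probe. Levels of different probes depend on their sequence too, so a gap between probes does not measure a gap between transcripts. Between 47.0% and 57.0% of spots on an array were well above background, the lowest share on the first wild-type array. Adamts1 itself was at 6.65 and 6.73 in wild-type and 6.77 and 6.82 in transgenic cells, a difference of 0.11 ± 0.09 (SE, n = 2 and 2; limma adjusted p = 0.573), so its transcript does not tell the groups apart and gives no check of the labels. All 14 adipocyte progenitor markers were above background on all 4 arrays, and 2 of them were called lower. Their summed signal was 3966 to 4821 times the array's 75th percentile in wild-type and 3375 to 3402 times in transgenic samples.

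Of the 37 member genes, 30 could be tested, 20 of integrins and 10 of laminins, and each of these was above background on all 4 arrays. In the transgenic samples the laminin chain gene Lamc3 and the integrin chain gene Itga8 rose, and the integrin chain gene Itgb7 fell, each past an adjusted p of 0.05 in limma over 24518 features. Those 3 calls among 30 members stand beside 423 calls among all features, 1.73% of them, with 0.967% higher and 0.759% lower. The fall of Itgb7 was 3.58-fold, the rise of Lamc3 6.38-fold and that of Itga8 2.26-fold. At an unadjusted p under 0.05 there were 19 of the 30, 7 higher and 12 lower, where all features had 19.0%. The transgenic pair lay wholly above the wild-type pair for 10 members and wholly below it for 15, and the groups overlapped for 5. Over all features the groups did not overlap in 53.1%, with the transgenic pair above in 24.5% and below in 28.6%. Of the 20162 features above background on all 4 arrays, as the members were, 53.7% did not overlap, 19.2% had an unadjusted p under 0.05 and 1.71% were called. The median difference over the 30 members was -0.05, beside -0.02 over all features. With 2 samples a group, exact permutation of any one gene cannot go below p = 0.333, so the calls rest on the spread that limma shares across features.

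**Figure D1:**
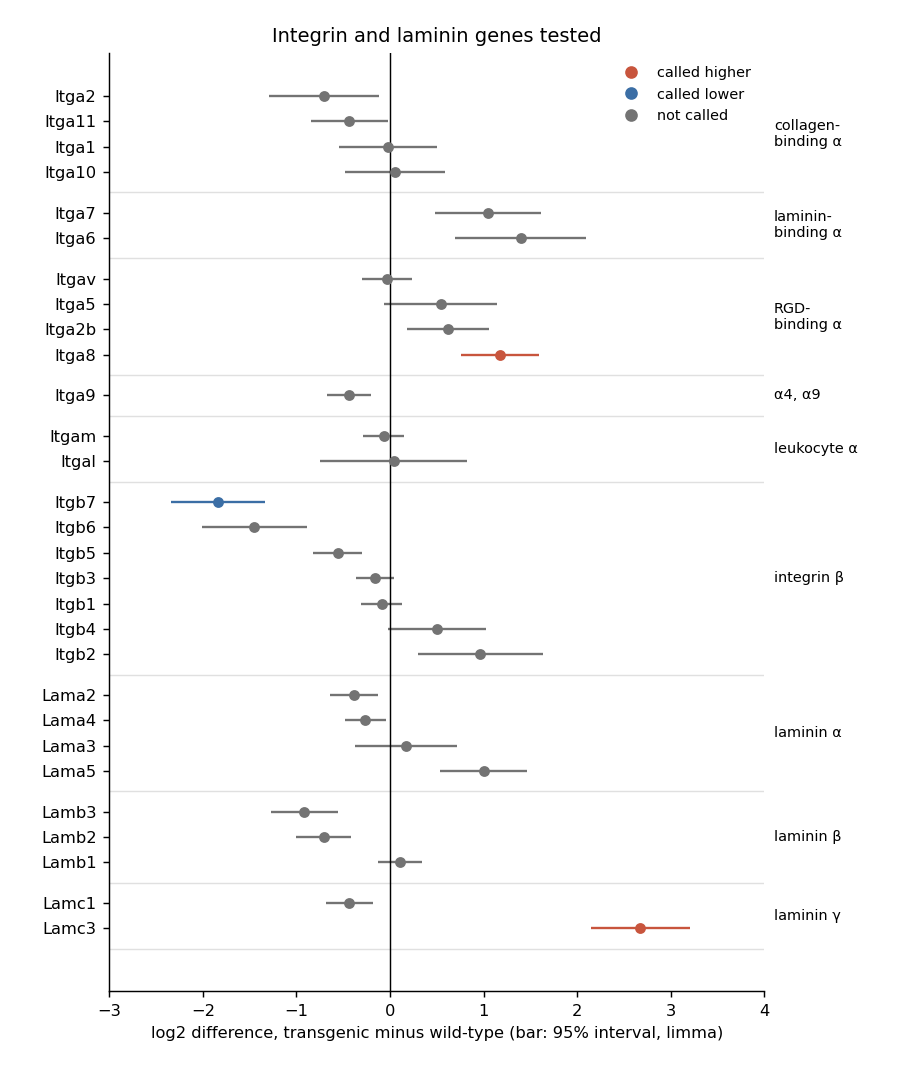
Log2 difference, transgenic minus wild-type, of tested integrin and laminin genes by role, with the 95% interval from limma (2 samples a group); orange points were called higher, blue lower and grey not called. Lamc3 stands at 2.67, Itga8 at 1.18 and Itgb7 at -1.84, and Itgb6 at -1.45 was not called.

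The counts moved with single samples. Leaving out the first or the second wild-type sample gave 4 or 5 members higher and 4 or 7 lower, while without the first or the second transgenic sample 1 or 0 were higher and 1 was lower. Without the first wild-type sample, Lama5 (adjusted p = 0.0447), Lamb2 (0.0390), Itgb6 (0.0481) and Itga6 (0.0314) were among the calls gained. Without the second, Itga5 (0.0208), Itga6 (0.0357), Lama5 (0.0398), Itgb5 (0.0406), Itgb6 (0.0162), Lamb2 (0.0333), Lamb3 (0.0357) and Lamc1 (0.0298) were among them. Without an intensity trend limma called 0 features of any kind, these 3 included, and 4124 features had an unadjusted p under 0.05. The wild-type pair was the more scattered one, with an SD of the difference between its replicates of 0.577 over features, against 0.345 for the transgenic pair. Over the members the median size of the replicate difference was 0.166 in wild-type and 0.114 in transgenic samples.

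Laminin gamma chains close the trimer, gamma1 in most laminins and gamma3 in a minor set found in nerve, vessel and reproductive tissues. Lamc3 was at -2.77 and -2.35 in wild-type and at -0.0046 and 0.23 in transgenic cells. The transgenic samples were far above the wild-type samples, by 2.67 ± 0.21 (SE, n = 2 and 2; limma adjusted p = 0.0191), and the 95% interval of the fold ran from 4.42 to 9.21. With a model-based background correction (normexp) the difference was 1.79 with the 75th percentile shift and 1.88 with quantile normalization, and the call held, and without the second transgenic sample the adjusted p was 0.0526. Lamc1 lay the opposite way and was not called. It was at 7.71 and 7.62 in wild-type and 7.20 and 7.27 in transgenic cells, a difference of -0.44 ± 0.10 (adjusted p = 0.114). Its transgenic levels were wholly below the wild-type ones.

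None of the beta chains, which pair with gamma inside the trimer, passed the threshold, although 2 of 3 had an unadjusted p under 0.05. Lamb3, the beta chain of the epithelial anchoring laminin, was at 0.60 and 0.53 in wild-type and -0.22 and -0.48 in transgenic cells, a difference of -0.92 ± 0.14 (limma adjusted p = 0.0537). Lamb2, which takes the place of beta1 in laminins of muscle synapses, kidney and vessels, was at 6.71 and 6.89 in wild-type and 6.18 and 6.0 in transgenic cells, -0.71 ± 0.12 (adjusted p = 0.0602). For both, the transgenic pair lay below the wild-type pair. Lamb1, the common beta chain, was at 7.20 and 7.15 against 7.29 and 7.27, a difference of 0.11 ± 0.09 (adjusted p = 0.579).

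The alpha chain carries most of the sites that cell receptors bind. No alpha chain gene was called, and 3 of 4 had an unadjusted p under 0.05 in limma, 1 higher and 2 lower. Lama5, typical of mature vessels and epithelia, was at -1.94 and -2.23 in wild-type and -1.09 and -1.07 in transgenic cells, 1.0 ± 0.19 higher (adjusted p = 0.0754). Over the 11 alternatives that used all arrays the Lama5 difference ran from 0.56 to 1.04. Lama2, the main alpha chain around muscle and peripheral nerve, was at 7.52 and 7.51 against 7.19 and 7.06, a difference of -0.39 ± 0.10 (adjusted p = 0.142). Its second probe gave -0.37 ± 0.11. Lama4, found around capillaries and fat cells, was at 6.14 and 6.19 against 5.88 and 5.93, a difference of -0.26 ± 0.09 (adjusted p = 0.201). So both transgenic samples lay below both wild-type samples for Lama2 and Lama4 and above them for Lama5, with no call. Lama3, the alpha chain of the epithelial anchoring laminin, overlapped between groups (0.17 ± 0.21, adjusted p = 0.705), and Lama1, a chain of the embryo, was not above background on any array. Over the 10 tested laminin genes the median difference was -0.32, with 4 positive and 6 negative.

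Epithelial markers were read beside Lamb3 and Itgb6. Of 12 such markers 8 (Cdh1, Cldn4, Epcam, Krt18, Krt7, Krt8, Msln and Upk3b) were not above background on any array, and only 2, Krt19 and Cldn3, on all 4. The summed signal of the list was 8.49 to 9.17 times the 75th percentile in wild-type and 4.36 to 5.06 times in transgenic samples. Krt19 and Cldn3 give most of this sum, so it does not describe the list as a whole. Krt19 and Cldn3, 2 of the 3 that could be tested, were called lower, with log2 differences of -0.74 ± 0.10 (adjusted p = 0.0442) and -1.10 ± 0.15 (adjusted p = 0.0443), and the third, Krt14, differed by 0.25 ± 0.34. The part of these markers in the levels of Lamb3 and Itgb6 was not tested. In sorted cells measured in bulk, fewer cells of a type and less RNA per cell cannot be told apart.

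Collagen-binding alpha chains (alpha1, alpha2, alpha10 and alpha11) all pair with beta1. None of the 4 was called, and 2 had an unadjusted p under 0.05 in limma, both lower. Itga11, a fibroblast receptor for fibrillar collagen, was at 6.57 and 6.82 in wild-type and 6.07 and 6.45 in transgenic cells, -0.43 ± 0.16 (adjusted p = 0.243). Itga2, the collagen receptor of platelets and epithelia, was at -2.84 on both wild-type arrays and at -3.51 and -3.57 on the transgenic ones, -0.70 ± 0.23 (adjusted p = 0.204). Both transgenic samples were below both wild-type samples for Itga11 and for Itga2. Over the 11 alternatives that used all arrays the Itga2 difference ran from -0.74 to -0.27. Itga1, 130.8 kb from Itga2 on chromosome 13 by the distance between probes, differed by -0.02 ± 0.21, and Itga10 by 0.05 ± 0.21, and their groups overlapped.

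The laminin-binding alpha chains alpha6 and alpha7 lay higher in the transgenic samples without reaching the threshold. Itga6, which pairs with beta1 or, in hemidesmosomes, with beta4, was at -1.98 and -2.67 in wild-type and -0.81 and -1.04 in transgenic cells, 1.40 ± 0.28 (limma adjusted p = 0.0852). Itga7, the laminin receptor of muscle, was at 0.91 and 1.14 against 2.39 and 1.76, 1.04 ± 0.23 (adjusted p = 0.102). Neither gene's groups overlapped. With normexp the Itga6 difference was 0.81 with the 75th percentile shift and 0.90 with quantile normalization, and without a filter on dim probes both genes were called (adjusted p = 0.0484 and 0.0493). Without the first or the second wild-type sample Itga6 was also called (adjusted p = 0.0314 and 0.0357). Itga3, the other laminin-binding chain, was above background on the second wild-type array alone, at -4.58, and was not tested.

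RGD-binding alpha chains held the other called rise. Itga8, a beta1 partner that marks mesenchymal and smooth muscle cells and binds nephronectin, was at -1.52 and -1.76 in wild-type and -0.50 and -0.44 in transgenic cells. The transgenic samples lay close to each other and above both wild-type samples, by 1.18 ± 0.16 (limma adjusted p = 0.0454, 95% interval of the fold 1.7 to 3.01). The call was lost with normexp and the 75th percentile shift (0.76, adjusted p = 0.0623), held with normexp and quantile normalization (0.83, adjusted p = 0.0499), and was lost without the first or the second transgenic sample (adjusted p = 0.191 and 0.215). Its ligand gene Npnt was not above background on any array. Itga5, the fibronectin receptor chain, was at 0.72 and 1.44 against 1.57 and 1.67, 0.54 ± 0.24 (adjusted p = 0.301), and the wide gap within the wild-type pair is part of that error. The difference was 0.19 without the first wild-type sample and 0.90 without the second, where it was called (adjusted p = 0.0208). Itga2b, the fibrinogen receptor chain of platelets, was at -1.13 and -0.83 against -0.47 and -0.25, 0.62 ± 0.17 (adjusted p = 0.158). Itgav, the alpha chain shared by the receptors for vitronectin and latent TGF-beta, was at 1.04 and 0.96 against 0.91 and 1.02, a difference of -0.03 ± 0.11 (adjusted p = 0.889).

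Markers of vessel wall, platelets, fat cells and nerve were read beside Itga8, Itga7, Itga6, Itga2b and Lamc3. Of 12 smooth muscle and pericyte markers 10 were tested, 3 were called higher and 1 lower (5 and 2 at an unadjusted p under 0.05), Lmod1 was not above background on any array, and the summed signal was 17.2 to 17.3 times the 75th percentile in wild-type and 21.8 to 22.2 times in transgenic samples. Of 13 endothelial markers all were tested, but only 7 were above background on all 4 arrays. The others entered through the transgenic pair alone, which favours higher counts and a higher median. Over the 13, limma called 1 higher and 0 lower. At an unadjusted p under 0.05 there were 9 higher and 1 lower, with a median difference of 1.74. Their summed signal, to which the bright probes of Kdr, Plvap and Tek give most, was 28.3 to 29.9 in wild-type and 30.5 to 34.3 in transgenic samples, and each of the 13 was above background on some array. Of 8 platelet and megakaryocyte markers Gp1ba, Gp6 and Ppbp were not above background on any array and 4 were tested, of which limma called 0 and 1 had an unadjusted p under 0.05. Their summed signal was 5.08 to 5.29 in wild-type and 6.77 to 6.91 in transgenic samples. Of 12 mature adipocyte markers 10 were tested, 3 were called higher and 9 were higher at an unadjusted p under 0.05, Lep was not above background on any array, and the summed signal was 288 to 294 in wild-type and 503 to 516 in transgenic samples. Of 13 Schwann cell markers 9 were tested, 1 was called higher and 1 lower, and Cdh19 and Erbb3 were among those not above background on any array. The summed signal of the Schwann cell list was 64.9 to 79.8 in wild-type and 56.8 to 57.4 in transgenic samples. Above background on all 4 arrays were 9 smooth muscle and pericyte, 2 platelet, 8 mature adipocyte and 8 Schwann cell markers. The other tested markers of these lists also entered through the transgenic pair alone. Over all features limma called 0.967% higher and 0.759% lower, and 19.0% had an unadjusted p under 0.05. The part of these cell types in the integrin and laminin levels was not tested.

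**Figure D2:**
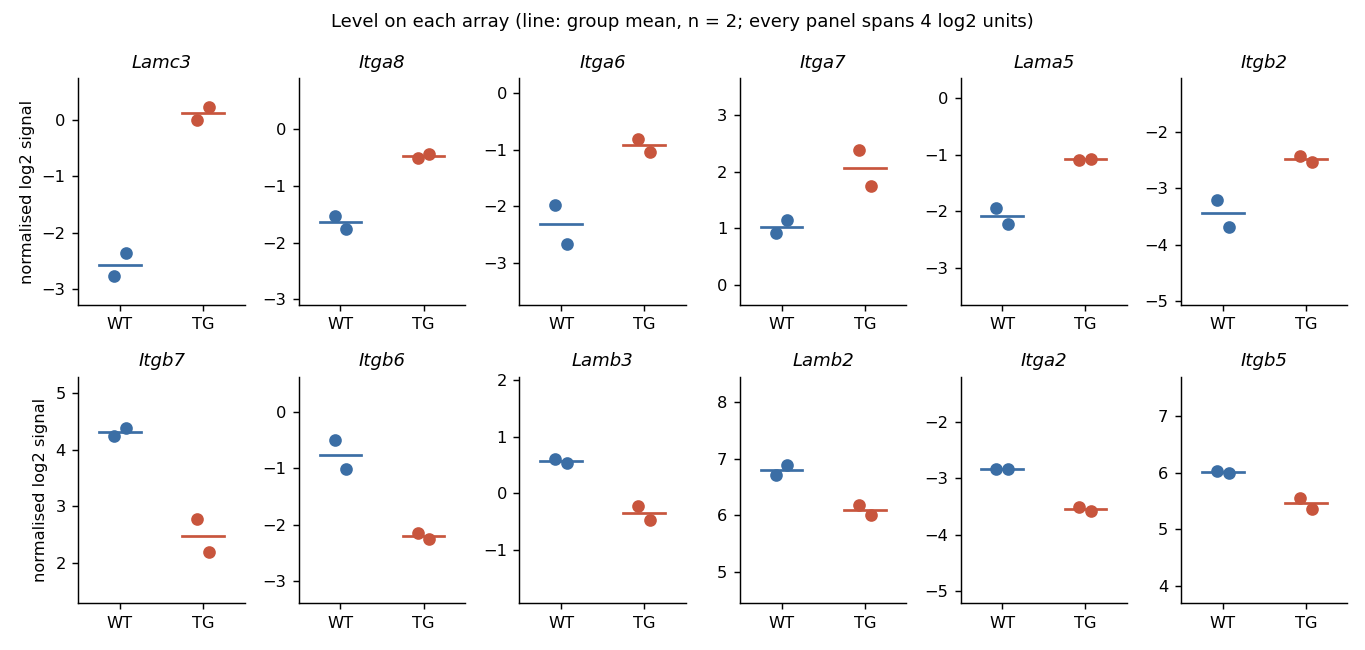
Normalised log2 signal on each of the 4 arrays (WT, wild-type; TG, Adamts1 transgenic) for the 6 members with the largest positive differences and 6 of the lower ones, one point per sample and a line at each group's mean; panels share a span of 4 log2 units but not a position. In all 12 panels the pairs do not overlap, which the choice of genes by their differences favours. Over all features the pairs did not overlap in 53.1%. The wild-type points of Itga6 lie at -1.98 and -2.67.

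Among the beta chains, Itgb7 was the called one. Beta7 pairs with alpha4 or alphaE and serves the homing of lymphocytes to gut and their hold on epithelium through MAdCAM and E-cadherin. Itgb7 was at 4.25 and 4.39 in wild-type and at 2.77 and 2.20 in transgenic cells. Both transgenic samples were well below the wild-type pair, and the first lay above the second. The difference was -1.84 ± 0.20 (limma adjusted p = 0.0283), and the transgenic level was 0.280 of the wild-type level, with a 95% interval of 0.198 to 0.396. It was called whichever sample was left out, with differences from -2.13 to -1.55.

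The alpha partners of beta7 could not be tested. Both probes of Itga4 were not above background on any array. Itgae was above background on the first wild-type array alone, at -2.32, with the other arrays between -6.99 and -6.94. Of the ligands, Madcam1 was at -3.66 and -3.72 in wild-type and -3.47 and -3.27 in transgenic cells, 0.32 ± 0.26 (adjusted p = 0.536), and Cdh1 was not above background on any array. Of 13 lymphocyte markers Cd8a and Il7r were among those not above background on any array, and 9 were tested. Only 6 were above background on all 4 arrays, and the other tested ones entered through the transgenic pair alone, which favours higher counts. Over the 9, limma called 2 higher and 0 lower. At an unadjusted p under 0.05 there were 6 higher and 1 lower, with a median difference of 1.37. The 1 lower was Cd3e, whose probe was among the bright ones of the list, and the summed signal overlapped between groups, at 12 to 16.1 in wild-type and 11.1 to 12.3 in transgenic samples. Mast cells also carry beta7, and of 9 mast cell markers Cma1, Fcer1a, Gata2, Kit and Ms4a2 were not above background on any array, with a summed signal of 0.770 to 0.960 in wild-type and 0.985 to 1.03 in transgenic samples. Of the 3 mast cell markers tested, 2 were above background on all 4 arrays. Limma called 0 of the 3, and 3 had an unadjusted p under 0.05, 2 higher and 1 lower, where all features had 19.0%. Mcpt4, 1 of the 2 higher, entered through the transgenic pair alone, and the others, Hdc (0.68) and Tpsb2 (-0.51), lay in opposite directions.

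Beta6 and beta5 pair with alphaV, and beta6 is the epithelial chain that releases active TGF-beta from its latent form. Itgb6 was at -0.51 and -1.01 in wild-type and -2.15 and -2.26 in transgenic cells, a difference of -1.45 ± 0.22 just outside the threshold (limma adjusted p = 0.0538). Its second probe was not above background on any array. Of the 11 alternatives that used all arrays it was called in 4, and with normexp the difference was -1.02 with the 75th percentile shift and -0.94 with quantile normalization. Itgb5, the vitronectin receptor chain, was at 6.04 and 6.0 against 5.56 and 5.36, -0.56 ± 0.10 (adjusted p = 0.0750). Both genes were lower in both transgenic samples.

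Beta1 is the partner of most alpha chains above and is borne by nearly all adherent cells. Itgb1 was at 3.06 and 3.11 in wild-type and 2.94 and 3.05 in transgenic cells, -0.09 ± 0.09 (limma adjusted p = 0.618), and the 95% interval of the ratio ran from 0.807 to 1.10. Itgb3, the other main partner of alphaV, was at 4.50 and 4.43 against 4.28 and 4.32, -0.16 ± 0.08 (adjusted p = 0.355). Itgb4, the hemidesmosome chain, was at -2.55 and -2.23 against -1.89 and -1.88, 0.50 ± 0.21 (adjusted p = 0.280). Over the 11 alternatives that used all arrays the Itgb4 difference ran from 0.12 to 0.56. Itgb8, a further alphaV partner, was not above background on any array. Itga9, which pairs with beta1 and binds tenascin and osteopontin, was at 3.19 and 3.14 against 2.80 and 2.65, -0.44 ± 0.09 (adjusted p = 0.0968), lower in both transgenic samples.

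Leukocyte integrins share the beta2 chain. Itgb2 was at -3.21 and -3.68 in wild-type and -2.43 and -2.53 in transgenic cells, 0.96 ± 0.27 (limma adjusted p = 0.154), and 0.22 or 0.39 in the 2 settings with normexp. Its alpha partners Itgax and Itgad were not above background on any array. Itgal, the alpha chain of the lymphocyte receptor LFA-1, was at -2.76 and -3.41 against -3.19 and -2.91, with overlapping groups and a difference of 0.04 ± 0.31 (adjusted p = 0.959). The brightest probe named for Itgam holds a CA repeat in 20 of its 60 bases and may not measure that transcript. It was at 5.56 and 5.60 against 5.56 and 5.47, a difference of -0.07 ± 0.09 (adjusted p = 0.708). Macrophage and myeloid markers stood higher in the same samples. Of 19 on the list 16 were tested, and 11 were called higher and 0 lower, where all features had 0.967% and 0.759%. Only 9 were above background on all 4 arrays. The other tested ones, some of the 11 among them, entered through the transgenic pair alone, where they are high. Cd163, Cx3cr1 and Fcgr1 were not above background on any array, and the summed signal was 9.34 to 11.7 in wild-type and 20.7 to 21.3 in transgenic samples. Csf1r, which was not called (0.44 ± 0.14, limma adjusted p = 0.197), gives most of the wild-type sum, so the sums do not describe the list as a whole. The part of these cells in the level of Itgb2 was not tested.

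**Figure D3:**
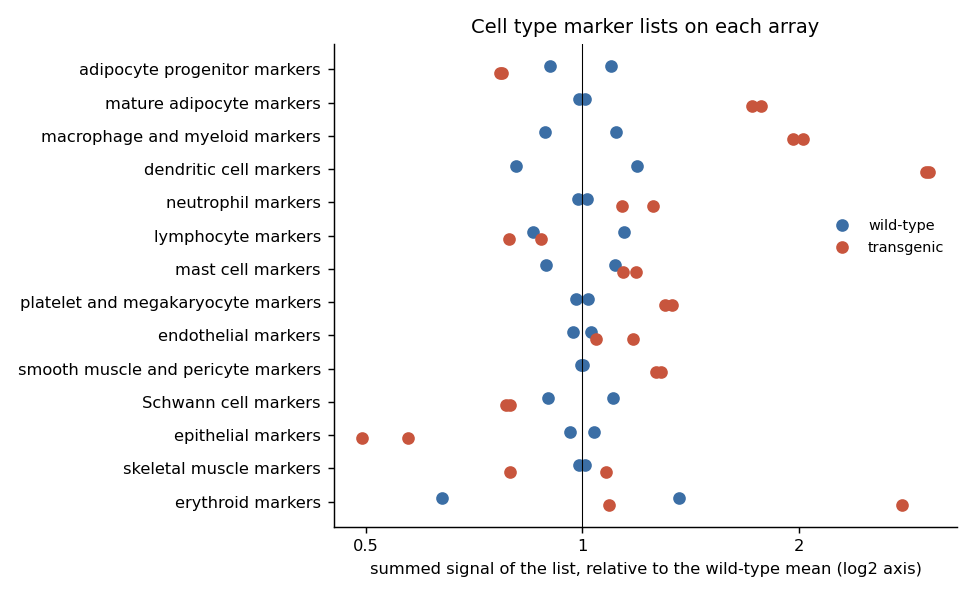
Summed signal of each cell type marker list on each array, relative to the mean of the 2 wild-type arrays, on a log2 axis, with one point per sample. The macrophage list, 9.34 to 11.7 times the 75th percentile in wild-type, reached 20.7 to 21.3 times in the transgenic samples. Most of its wild-type sum comes from Csf1r, and most of the mature adipocyte sum from Lpl, and neither gene was called. The epithelial list, 8.49 to 9.17 times in wild-type, lay at 4.36 to 5.06 times. Most of the epithelial sum comes from Krt19 and Cldn3, and 8 of its 12 markers were not above background on any array.

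Of the 37 genes, 11 had several probes, and 7 of these had at least 2 that could be tested. In a fit of every probe as its own feature, which called 515 of 29387 probes, 1.75%, the 39 tested member probes held the same 3 calls. Probes of opposite sign occurred in 3 of the 7 genes. Itgav is an example of probes that disagreed in size: the probe nearest the end of the transcript differed by -0.03 ± 0.11, whereas the probe at base 3885 read 0.08 and 0.08 in wild-type and -0.56 and -0.67 in transgenic cells, -0.70 ± 0.12 (limma adjusted p = 0.0713). For Itgb1 the probe at base 1840 read 1.25 and 0.90 against 0.56 and 0.53, -0.53 ± 0.15 (adjusted p = 0.154), beside -0.09 for the brighter probe at base 2631. The inner probe thus gave the lower transgenic level in both genes, with no call. For Itgb3 the dimmer probe went the other way, 0.68 ± 0.40, with -1.43 and -2.62 on the wild-type arrays. The Itgal probe at base 3543 was above background on both transgenic arrays and on neither wild-type array, and no fold is given for it.

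Itgam showed the widest gap between probes of one gene. The probe with the CA run, printed above, lay near 5.6 on every array, at 5.56, 5.60, 5.56 and 5.47, whereas the probe at base 3410 lay at -3.04 and -3.24 in wild-type and -2.79 and -3.14 in transgenic cells. The probe at base 270 lay at -4.18 and -4.44 against -4.30 and -4.19. Across the array 35 probes held 8 or more CA units in a row, and 34 of them, 97.1%, were above background on all 4 arrays, against 43.8% of all probes. Their median level was 4.24, against -4.23 over all probes, and the differences of those 34 ran from -0.32 to 0.17. The other Itgam probes differed between groups by 0.18 ± 0.25 and 0.07 ± 0.31.

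**Figure D4:**
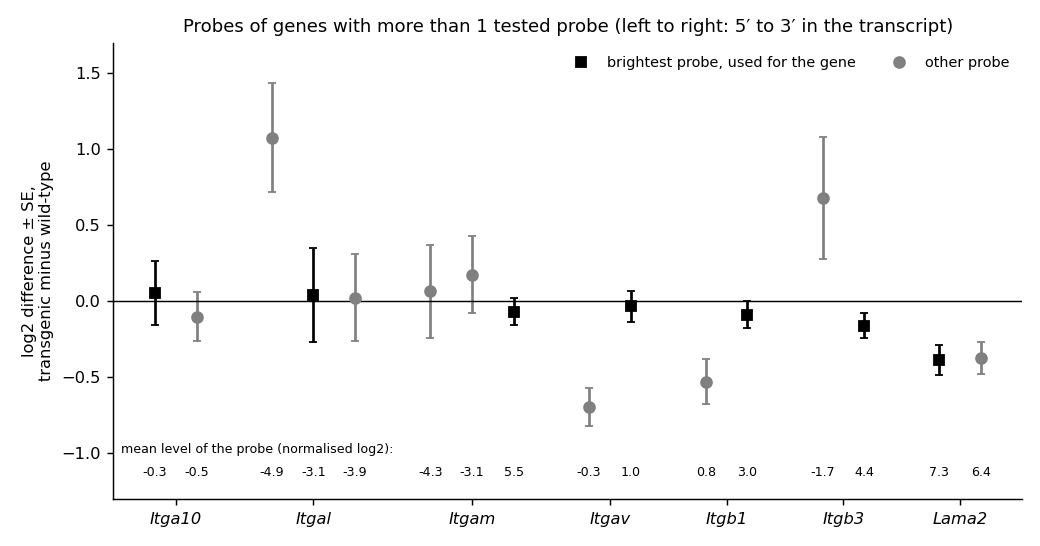
Log2 difference, transgenic minus wild-type, with its SE from limma (2 samples a group) for each tested probe of the 7 genes with more than 1, ordered 5′ to 3′ within the gene; squares mark the brightest probe, circles the others, and the printed values give each probe's mean level. The inner probes of Itgav and Itgb1 stand at -0.70 and -0.53, apart from the brightest ones at -0.03 and -0.09.

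Other genes of the same matrix and adhesion system were read for context. Of 17 other basement membrane genes 2 were called higher and 0 lower, with a median difference of 0.15. Over all features 0.967% were called higher and 0.759% lower, with a median of -0.02. Above background on all 4 arrays were 16 of the 17. Col18a1, whose chain carries endostatin, was at 4.00 and 4.05 in wild-type and 5.06 and 5.07 in transgenic cells, 1.04 ± 0.08 (limma adjusted p = 0.0191). Col4a1, a chain of the collagen network that laminin is linked to, was at 5.90 and 6.18 against 6.85 and 6.88, 0.82 ± 0.12 (adjusted p = 0.0490), and its partner Col4a2 was not called (0.90 ± 0.17, adjusted p = 0.0788). Nid1, the linker of laminin to collagen IV, differed by -0.32 ± 0.11 (adjusted p = 0.204) and Hspg2, which encodes perlecan, by 0.15 ± 0.14. The other collagen IV chains were not called, with Col4a3 at 0.36 ± 0.22, Col4a4 at -0.50 ± 0.12, Col4a5 at -0.59 ± 0.17 and Col4a6 at -0.77 ± 0.30.

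Of 24 tested matrix and cell-surface ligands of integrins 2 were called higher and 0 lower, with a median of 0.12. Over all features 0.967% were called higher and 0.759% lower, with a median of -0.02. Above background on all 4 arrays were 22 of the 24. F11r, which encodes the junction protein JAM-A, a ligand of LFA-1, was at -1.33 and -1.12 in wild-type and 0.55 and 0.51 in transgenic cells, 1.76 ± 0.14 (limma adjusted p = 0.0205). Icam2, another LFA-1 ligand that endothelial cells carry, was at -1.56 and -1.14 against 0.71 and 0.21, 1.81 ± 0.24 (adjusted p = 0.0415). Thbs1 (1.73 ± 0.26, adjusted p = 0.0512) and Vcam1 (0.60 ± 0.09, adjusted p = 0.0517) lay just outside the threshold, and Fn1, which encodes fibronectin, differed by -0.36 ± 0.14 (adjusted p = 0.263).

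Among 19 non-integrin laminin receptors and netrins limma called 0, and 9 had an unadjusted p under 0.05, 5 higher and 4 lower. Over all features limma called 1.73%, and 19.0% had an unadjusted p under 0.05. Only 15 of the 19 were above background on all 4 arrays. The others, with Bcam, Sgca and Sgcd of the 5 higher among them, entered through the transgenic pair alone, which favours higher counts. Sdc1, which encodes the heparan sulfate proteoglycan syndecan, was at 0.45 and 0.35 in wild-type and 1.25 and 1.09 in transgenic cells, 0.77 ± 0.12 (adjusted p = 0.0512). Ntn4, a netrin that binds laminin and disrupts its network, was at 1.21 and 1.10 against 0.38 and 0.08, -0.93 ± 0.14 (adjusted p = 0.0513). These genes lay just outside the threshold, in opposite directions. Among 32 intracellular adhesion proteins limma again called 0, and 13 had an unadjusted p under 0.05, 7 higher and 6 lower, with a median of -0.03. Only 29 of the 32 were above background on all 4 arrays, and Fermt3 and Actn1 of the 7 higher entered through the transgenic pair alone. Tns2, a tensin that ties beta chains to actin, differed by -0.56 ± 0.09 (adjusted p = 0.0562). Tln1, which encodes the talin that activates integrins, was at 5.47 and 5.53 against 5.48 and 5.46, -0.03 ± 0.08, and Fermt2, a kindlin, differed by -0.07 ± 0.08.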

How the data were processed

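RNA of sorted subcutaneous adipocyte progenitor cells, 2 wild-type and 2 Adamts1 transgenic samples, was hybridised to 1-colour Agilent arrays, per the labels' protocols. Per the file headers, Feature Extraction 10.7.3.1 made the processed intensity on array design 028005, background-subtracted and detrended within each array, with probe positions on mm9. The raw spot and background intensities that the authors deposited served for normexp (offset 50). The log2 value table that the authors deposited correlated, at 0.9998 to 1.000, with processed log2 signal once this was shifted by the 75th percentile and each probe was centred on its median. Its column medians were 0.19, -0.02, -0.05 and 0.02, the sources used here do not give its making, and its scale and centring are known from this comparison alone. The 4 arrays shared 1 slide and 1 scan, so a block for either was not possible.

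Control spots and outlier spots were left out, replicate spots averaged, and each array's 75th percentile of log2 signal subtracted. RefSeq accessions (GRCm38.p6, names only) named 26582 probes, and 29099 kept the design's name. For all 50 member probes the 2 names were the same. A gene entered by its brightest probe, and was tested where both arrays of at least 1 group had that probe well above background. A listed gene could thus enter through 1 group alone, which favours counts higher in that group. limma 3.58.1 in R 4.3.3 (2-sided, with an intensity trend, 2 residual and 3.34 prior degrees of freedom) was fitted to 24518 features with Benjamini-Hochberg adjustment. The median SE of 0.18 and the number of arrays limit the precision. The fit was tested on simulated data. The members and all gene lists were chosen with earlier results of these data known, and 1 tested member and 2 marker genes enter the counts but are not reported here. From the lists, genes were named for a call, for nearness to the threshold or as a core component. Alternatives were the scaling, the background correction, the filter, the trend, the choice of probe, the value table, the replicate number as a block and each sample left out.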

Additional observations from a re-analysis of the deposited data

How the results depend on the processing

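The members' median difference stayed between -0.11 and -0.0042 under every alternative that was run. Itgb7 was called in all settings but the fit with no intensity trend (adjusted p = 0.104), and Lamc3 was lost there (0.0690) and without the second transgenic sample. Over all features, calls numbered 423, against 695 with no filter on dim probes, 774 with the replicate block and 0 with no intensity trend, where 4124 had an unadjusted p under 0.05 in limma. Leaving out each sample in turn gave 71 to 3126 calls. The 2 members called higher became 1 with normexp and the 75th percentile shift, 4 with no filter and 0 with no trend, and 0 to 5 when each sample was left out. The 1 called lower became 2 with a median shift, 3 with normexp and the 75th percentile shift, 4 with no filter, 0 with no trend and 5 with the replicate block, and 1 to 7 when each sample was left out. The cause of these moves was not tested.

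The replicate differences of the 2 groups correlated at 0.0032 over features, so samples of the same replicate number showed no shared shift. This cannot tell whether they were paired in handling. The replicate block called 3 members higher, and with it Itgb6 (0.0299), Lamb3 (0.0342), Itga6 (0.0382) and Lamb2 (0.0480) had adjusted p-values past the threshold. Lamb3 also passed with normexp and the 75th percentile shift (0.0337), though not with normexp and quantile normalization, and with no filter (0.0243), and Lamb2 with no filter (0.0353).

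The members that changed sign under some alternative had main differences from -0.16 (Itgb3) to 0.17 (Lama3). Itga1 was 0.034 with quantile normalization and 0.0078 in the value table, Itgal -0.12 with normexp and the 75th percentile shift, and Itgam 0.0012 with quantile normalization and 0.0014 with normexp and quantile normalization. With the mean over a gene's probes Itga10 was -0.024, Itgam 0.058 and Itgb3 0.26. The 2 Itgb3 probes disagreed, at -0.16 for the brightest and 0.68 for the dimmer one. With each sample left out, Itga1 ran from -0.11 to 0.069, Itga10 from -0.20 to 0.31, Itgal from -0.28 to 0.36, Itgav from -0.086 to 0.017 and Lama3 from -0.022 to 0.36. The 7 member genes not above background on both arrays of a group could not be tested.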
